A study of Homo sapiens with 24 samples.

Results

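The 10 genes followed here belong to the machinery that takes a cell from G1 into S phase. They were measured in U2932, a line grown from a diffuse large B-cell lymphoma of a patient. They are the D cyclins CCND2 and CCND3, the E cyclins CCNE1 and CCNE2, the kinases CDK4 and CDK6, the transcription factors E2F1, E2F2 and E2F3, and the phosphatase CDC25A. They were chosen by symbol, with earlier results of these data known. All 10 were present among the 61541 genes of the 48 h table and the 19836 genes of the 72 h table. They passed the filter on low values in both. The 24 libraries comprised 6 PBS controls, 4 libraries labelled PNA2 and 4 labelled siRNA at 48 h, and 5 PBS controls and 5 libraries labelled PNA2 at 72 h. All cells were labelled wild type, as DLBCL and as bone marrow. PNA2 belongs to the gamma peptide nucleic acids, DNA analogues built on a peptide-like backbone. It was directed at MYC and added to the cells at a labelled dose of 8 mM, a unit that is in doubt. The siRNA against MYC was given at 500 nM by electroporation. No electroporated control was labelled, so effects of the siRNA and of electroporation cannot be told apart. The cell line entry read U2932 in 20 libraries and differed in its last digit in the 4 siRNA libraries. No label states that replicates came from separate cultures, so p-values measure only the spread between these libraries, which may be technical.

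In G1, D cyclins bind CDK4 and CDK6 and start the phosphorylation of the retinoblastoma protein, which holds E2F factors in check. Released E2F1, E2F2 and E2F3 switch on genes of DNA replication and also CCNE1 and CCNE2, whose products bind CDK2 and complete the phosphorylation. CDC25A removes inhibitory phosphates from CDK2. MYC is known to promote entry into S phase, and in B-cell lymphomas the D cyclins, CDK4 and CDK6 are recurrent points of deregulation.

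MYC was checked first. Its TMM-scaled value at 48 h, the deposited value divided by a scale per library, was 5348 to 7721 (median 6880) in the 6 controls. It was 7198, 7260, 7904 and 8997 in the libraries labelled PNA2 and 3578, 3961, 4159 and 3576 in the siRNA libraries. MYC was lower in siRNA than in the controls without overlap (log2 change -0.82, SE 0.11, limma adjusted p = 0.000396). In the libraries labelled PNA2 it was not lower (log2 change 0.24, SE 0.10, adjusted p = 0.114), which goes against the label of a knockdown, so PNA2 below names libraries by their label only. At 72 h its log2 change was -0.18 (SE 0.45, adjusted p = 0.794). The 48 h libraries fell into 2 sets that share tied values and that the labels do not name. Set A held PBS replicates 1, 2 and 4, PNA2 replicates 1 and 2 and all siRNA libraries, and set B held PBS replicate 3, the unnumbered controls of columns 6 and 7, and PNA2 replicates 3 and 4. Totals ran from 11.1 to 16.2 M at 48 h, and recovered reads from 8.22 to 13.7 M reads at 72 h. The 6 B cell markers summed to between 20581 and 44528 in every library. The 7 markers of T and NK cells summed at 48 h to 1.49 to 24.8 in PBS, 19.0 to 71.5 in PNA2 and 12.6 to 26.2 in siRNA, and CD8A was the only one above the filter. The 5 markers of stroma and epithelium summed at 48 h to 170 to 261 in PBS, 195 to 410 in PNA2 and 244 to 268 in siRNA. EPCAM was the highest gene in each group. At 72 h the T and NK cell markers summed to 19.2 to 37.7 in PBS and 31.7 to 55.2 in PNA2. The 2 of them above the filter there were higher in PNA2, by 1.48 and 1.69, without passing the test. Markers of stroma and epithelium summed at 72 h to 104 to 136 in PBS and 93.3 to 157 in PNA2. Markers of myeloid cells summed to at most 45.0 and of erythroid cells and megakaryocytes to at most 7.01 in any library.

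RefSeq promoter windows (GRCh38.p14, 250 bases before to 50 after the start) were matched for 8 of the 10 genes, all but CCND2 and CCNE2, at 12 starts. The motifs searched on both strands were the E2F sites TTGGCGC or TTCCCGC or TTGCCGC or TTCGCGC, none of which overlaps the other motif, the E-box CACGTG bound by MYC with MAX. An E2F match stood at 4 of the 12 starts, 1 each of E2F1, E2F2, E2F3 and CDC25A, and in 12.97% of 35116 promoter windows of the same length. An E-box stood at 3 of the 12 starts, 1 each of CDK4, CDK6 and E2F3, and in 7.26% of all windows. The stretches just before the starts are shown for the 3 E2F genes and CDC25A because E2F1, E2F2 and CDC25A were lower in the libraries labelled PNA2 at 48 h and E2F3 was not. CDK4 is shown for its 3 E-box matches. Each is printed 5′ to 3′ on the gene's strand with the matches in capitals.
E2F1, chr20:33686386-33686535, reverse strand: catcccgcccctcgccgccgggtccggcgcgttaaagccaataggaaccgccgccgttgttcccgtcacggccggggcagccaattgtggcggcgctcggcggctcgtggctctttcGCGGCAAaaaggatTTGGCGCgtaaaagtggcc
E2F2, chr1:23531234-23531383, reverse strand: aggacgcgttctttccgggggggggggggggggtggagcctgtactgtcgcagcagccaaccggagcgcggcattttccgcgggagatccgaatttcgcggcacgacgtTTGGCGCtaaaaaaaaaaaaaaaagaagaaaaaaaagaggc
E2F3, chr6:20401729-20401878, forward strand: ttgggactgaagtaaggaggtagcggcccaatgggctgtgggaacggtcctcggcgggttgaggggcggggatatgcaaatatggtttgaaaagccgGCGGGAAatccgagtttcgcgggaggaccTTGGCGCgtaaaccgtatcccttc
CDC25A, chr3:48188418-48188567, reverse strand: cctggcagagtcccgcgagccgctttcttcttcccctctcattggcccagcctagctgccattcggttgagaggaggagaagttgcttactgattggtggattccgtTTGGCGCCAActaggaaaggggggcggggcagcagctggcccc
CDK4, chr12:57752311-57752560, reverse strand: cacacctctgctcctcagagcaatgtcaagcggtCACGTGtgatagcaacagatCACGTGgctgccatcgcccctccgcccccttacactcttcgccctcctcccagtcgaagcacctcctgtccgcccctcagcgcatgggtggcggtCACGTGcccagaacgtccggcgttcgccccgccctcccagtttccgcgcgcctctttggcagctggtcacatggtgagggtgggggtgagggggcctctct
All 4 E2F-bearing stretches carry TTGGCGC, and the E2F matches begin between 19 and 53 bases before the gene's start. In E2F1 and E2F3 a second match on the opposite strand lies upstream of it, and in CDC25A the site reads as a match on both strands. These are matches of letters, and no binding was measured. The other E2F3 start carries an E-box and no E2F match. The windows of CCNE1 and CCND3, also lower in the libraries labelled PNA2 at 48 h, carry neither motif. Whether any match bears on the values given below was not tested.

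Levels were compared between genes per kilobase of the longest coding transcript (GENCODE 29, GRCh38). CDK4 (chromosome 12, 57747727 to 57756013, reverse strand) had the highest level in the 48 h controls, 1996 ± 196 per kb (SD, n = 6). E2F1 (chromosome 20, 33675683 to 33686404, reverse) followed with 593 ± 61.3, and CCND3 (chromosome 6, 41934933 to 42050357, reverse) with 473 ± 54.6. CDC25A (chromosome 3, 48157146 to 48188402, reverse) and CCNE1 (chromosome 19, 29811898 to 29824308, forward) stood at 397 ± 44.3 and 385 ± 29.9 per kb. Their SDs overlapped. CCNE2 (chromosome 8, 94879770 to 94896678, reverse) had 207 ± 25.5 and E2F3 (chromosome 6, 20401906 to 20493715, forward) 199 ± 17.1. CDK6 (chromosome 7, 92604921 to 92836594, reverse) had 169 ± 13.4. The SD of E2F3 overlapped that of CCNE2 and that of CDK6. Differences between genes within a library were not tested. E2F2 (chromosome 1, 23506430 to 23531220, reverse) had 137 ± 20.2. CCND2 (chromosome 12, 4273772 to 4305350, forward) was far below every other member at 5.08 ± 1.54 per kb, so CCND3 was by far the more abundant of the 2 D cyclins followed. The 72 h controls were normalized separately and are not compared in level with 48 h. In them E2F1 was highest (979 ± 54.6 per kb, n = 5). CDK4 (860 ± 119) followed, with an SD that overlapped that of E2F1, and then E2F2 (628 ± 16.4). CCND2 was again the lowest (4.14 ± 1.52). Exons of CDK4 share 1369 bases with TSPAN31 on the opposite strand and exons of CCNE2 share 1629 with INTS8. Opposite-strand overlaps were shorter for CCND2 (126 bases, with CCND2-AS1), CDK6 (81 bases) and CCND3 (24 bases). Whether strand was used in counting was not given in the sources used here, so the values of these 5 genes are uncertain to that extent.

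**Figure D1:**
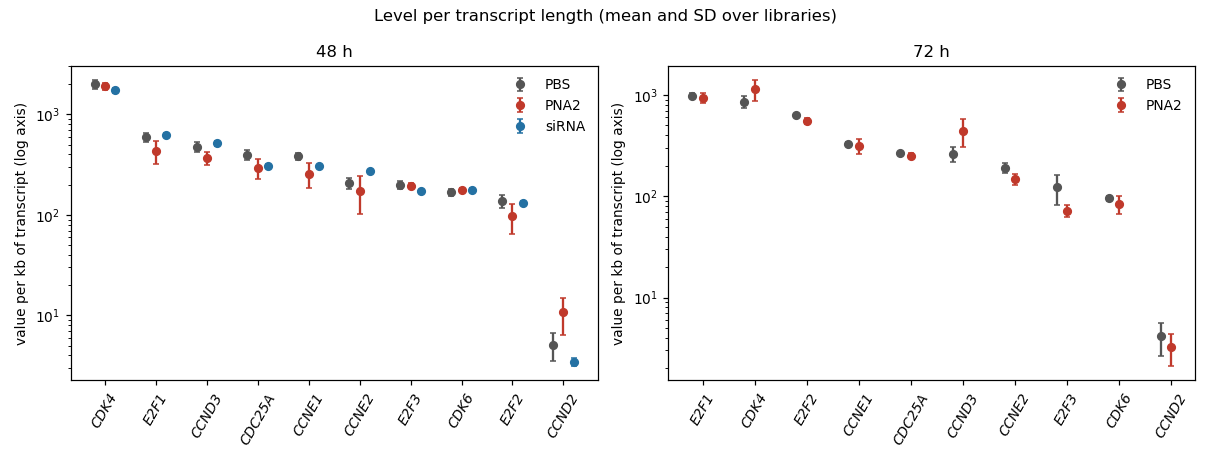
Level per kilobase of the longest coding transcript for the 10 genes at 48 h (left) and 72 h (right), on a log axis. Points are means over libraries and bars are SDs (PBS n = 6, PNA2 and siRNA n = 4 at 48 h; n = 5 each at 72 h), and genes are ordered by their PBS level. CDK4 leads at 48 h with 1996 per kb in PBS, E2F1 leads at 72 h with 979, and CCND2 lies lowest in both panels.

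The first comparison asked how the G1 genes differed between the libraries labelled PNA2 and PBS at 48 h. Cyclin E1, cyclin D3, E2F1, E2F2 and CDC25A transcripts fell by 0.37 to 0.63 on the log2 scale, while the scarce cyclin D2 transcript rose about 2.02-fold. CDK4, CDK6, E2F3 and CCNE2 did not pass the test. With limma and Benjamini-Hochberg adjustment over 14136 genes, 6 of 10 genes passed (1 higher, 5 lower), where 16.2% of all genes did so (8.11% higher and 8.04% lower). The median change was -0.38 over the 10 genes and -0.0011 over all genes. None of the 10 had groups without overlap, against 10.1% of all genes. Without rescaling, the PNA2 totals being higher, the median of all genes was 0.19 and 92.3% of called genes were higher, against 50.2% with it. CCND2 was then the only one of the 10 called, at 1.21 (adjusted p = 0.00994), where 15.4% of all genes were called. CCNE1 stood at -0.43, E2F2 at -0.35, E2F1 at -0.28, CDC25A at -0.26 and CCND3 at -0.17.

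**Figure D2:**
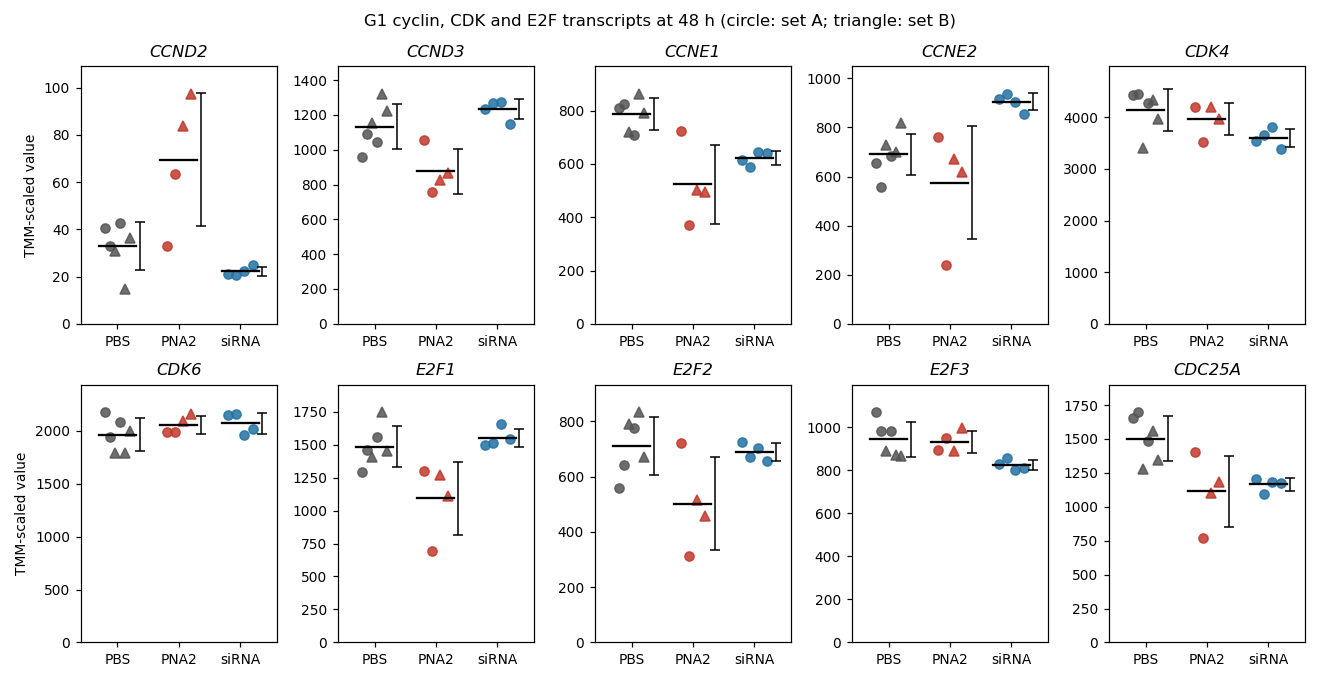
TMM-scaled value of each gene in each 48 h library by group. Circles are set A, triangles set B, the horizontal line is the group mean and the bar beside it the SD. The left PNA2 circle is replicate 1 and the right one replicate 2, which is the lowest library for CCNE1 (371), CCNE2 (240), E2F1 (691), E2F2 (314) and CDC25A (773).

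Of the D cyclins, CCND2 had a TMM-scaled value of 14.8 to 42.7 in the 6 controls (median 34.5), and 32.8, 63.5, 83.9 and 97.6 in PNA2 replicates 1 to 4. Replicate 1 lay among the controls and the other 3 libraries above all of them. The change was 1.02 (SE 0.31, limma adjusted p = 0.0346), or 0.25 (adjusted p = 0.580) in set A and 1.79 (adjusted p = 0.00277) in set B. The difference between the sets did not pass the limma test over 14136 genes (1.54, SE 0.55, unadjusted p = 0.0157, adjusted p = 0.233). Only 2 of these genes passed that test, so it does not show that CCND2 moved alike in both sets. The CCND2 call was lost without PBS replicate 2, PBS replicate 3, the control of column 6, PNA2 replicate 3 or PNA2 replicate 4, at adjusted p from 0.0510 to 0.121. CD8A, COL1A1 and COL1A2, from the lists of other cell types, moved at similarly low values. CD8A, a T cell gene, was 0.187 to 19.8 in the controls (median 6.57) and 8.94, 69.7, 29.6 and 14.7 in PNA2, and it passed (2.12, SE 0.64, adjusted p = 0.0338). The collagen gene COL1A1 was 3.46 to 18.4 in the controls and 7.45, 5.41, 4.41 and 142 in PNA2 (0.50, SE 0.73, adjusted p = 0.673). COL1A2, below the filter, likewise stood apart in PNA2 replicate 4 alone (45.3, against at most 2.61 in the other PNA2 libraries). The other genes of these lists were mixed in the 48 h group means. CD3D, CD2 and NKG7 were 0 in both PBS and PNA2, and CD3G was 0.169 in PBS and 0 in PNA2. CD3E was 1.39 in PBS and 2.80 in PNA2, and NCAM1 1.41 and 2.39. KRT18 was 0.459 in PBS and 1.10 in PNA2, PDGFRB 0.495 and 0.667, and EPCAM 198 and 203. Whether other cells were present, or had a part in the CCND2 result, was not tested. CCND3, the abundant D cyclin, stood at 957 to 1323 in the controls (median 1122) and at 1058, 754, 828 and 868 in PNA2. Replicate 1 again lay among the controls and the other 3 below all of them. The change was -0.37 (SE 0.09, adjusted p = 0.0146), or -0.20 in set A and -0.54 in set B, and it lost the call without PNA2 replicate 3 (-0.32, adjusted p = 0.0525). In these libraries the 2 D cyclins therefore moved in opposite directions, from very different levels.

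Both kinases that D cyclins activate were close to the controls. CDK4 stood at 3397 to 4460 in the controls (median 4305) and at 4197, 3520, 4191 and 3961 in PNA2, all inside the control range. CDK6 stood at 1787 to 2175 (median 1965) and at 1983, 1988, 2092 and 2160, also inside it. The changes were -0.06 for CDK4 (95% CI -0.23 to 0.11, adjusted p = 0.642) and 0.07 for CDK6 (95% CI -0.07 to 0.21, adjusted p = 0.489). The sign of CDK4 turned without rescaling, to 0.14.

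CCNE1, the CDK2 partner that E2F factors induce, had the largest decrease of the 10. Its value was 708 to 864 in the controls (median 802) and 724, 371, 502 and 494 in PNA2, with replicate 1 inside the control range and 3 libraries below it. The change was -0.63 (SE 0.13, adjusted p = 0.00542) and lay at -0.58 in set A and -0.67 in set B. No single library removed the call. CCNE2 was 559 to 816 in the controls (median 691) and 763, 240, 673 and 619 in PNA2, so only replicate 2 lay below the controls. Its change of -0.38 (SE 0.21, 95% CI -0.82 to 0.06, adjusted p = 0.2203) was -0.02 without that library and -0.66 (adjusted p = 0.0128) without replicate 1. CDC25A was 1279 to 1698 in the controls (median 1523) and 1403, 773, 1101 and 1181 in PNA2, with 3 libraries below every control. Its change was -0.46 (SE 0.13, adjusted p = 0.0239), or -0.62 in set A and -0.28 in set B. It was -0.25 without PNA2 replicate 2 and lost the call without PBS replicate 1 or 2 (adjusted p = 0.0510 and 0.0519).

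Among the activator E2F factors, E2F1 stood at 1294 to 1746 in the controls (median 1457) and at 1297, 691, 1267 and 1112 in PNA2. Replicates 2, 3 and 4 lay below all controls and replicate 1 just above the lowest. The change was -0.48 (SE 0.13, adjusted p = 0.0225), -0.28 without PNA2 replicate 2 and no longer called without PNA2 replicate 4 (adjusted p = 0.0555). E2F2 was 559 to 834 in the controls (median 724) and 722, 314, 516 and 459 in PNA2, with replicate 1 inside the control range. Its change of -0.55 (SE 0.17, adjusted p = 0.0334) was the least stable of these calls. It was lost without any 1 of PBS replicates 2, 3 and 4, the control of column 6 and PNA2 replicates 2, 3 and 4 (adjusted p from 0.0531 to 0.0961), and was -0.34 without PNA2 replicate 2. E2F3 was 864 to 1069 in the controls (median 935) and 894, 949, 888 and 997 in PNA2, all inside the control range (change -0.01, 95% CI -0.15 to 0.12, adjusted p = 0.903, and 0.18 without rescaling).

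**Figure D3:**
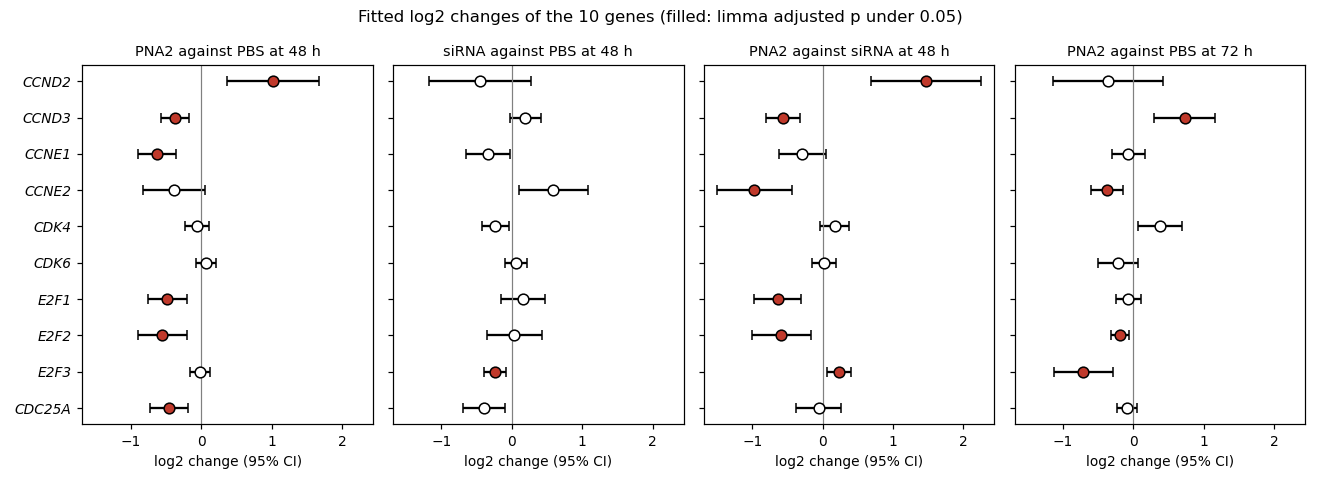
Fitted log2 change with its 95% confidence interval for the 10 genes in each of the 4 comparisons, on one axis scale. Filled points passed the limma test at an adjusted p under 0.05. CCND2 has the largest increase in both panels that compare PNA2 at 48 h (1.02 and 1.47), and CCND3 is lower in the first panel (-0.37) and higher in the last (0.73).

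Around these 10 genes, a list of 26 partners (other cyclins and kinases, CDK inhibitors, pocket proteins, E2F and DP factors, degradation factors) had 1 gene higher and 2 lower in PNA2 at 48 h, 11.5% of the list against 16.2% of all genes. This list and that of the E2F targets were chosen with earlier results of these data known. Their shares, here and below, are therefore descriptive only. CCND1, the remaining D cyclin, was 9.65 to 33.7 in the controls (median 25.5) and 31.8, 32.3, 69.0 and 84.5 in PNA2, where it rose by 1.06 (adjusted p = 0.0474). The higher values were those of set B, where replicates 3 and 4 (69.0 and 84.5) stood above controls of at most 22.1. In set A, replicates 1 and 2 (31.8 and 32.3) lay among controls that reached 33.7. COL1A1 and COL1A2 were high in replicate 4 and not in replicate 3, where COL1A1 was 4.41. Whether they bear on the CCND1 result was not tested. CDC25B, a relative of CDC25A, fell by 0.51 (adjusted p = 0.00281), and CDKN1C, which encodes the CDK inhibitor p57, fell by 0.98 (adjusted p = 0.0160). Of 20 known E2F targets, replication genes for the most part, 1 was lower and none higher. It was UHRF1, which carries DNA methylation through replication (-0.58, adjusted p = 0.00243). The list's median was -0.21, and 17 of the 20 values were below 0.

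The second comparison set siRNA against the same 6 PBS controls that the PNA2 comparison used, so the 2 are not independent. E2F3 was the only one of the 10 that passed, 1 of 10 where 17.2% of all genes did (8.72% higher, 8.52% lower). There were 4 genes, CCNE1, CCNE2, E2F3 and CDC25A, that had groups without overlap, where 15.5% of all genes had. Of the 10, 5 passed an unadjusted p of 0.05, as 31.9% of all genes did, and the median change was -0.10 against -0.01 over all genes. The adjusted test here draws its spread from all 3 groups, the scattered PNA2 libraries included. With the siRNA and PBS libraries alone, 7 of the 10 passed (2 higher, 5 lower), where 33.2% of all genes did. With both sets aligned on their controls 4 did, all lower, where 26% of all genes did.

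E2F3 was 827, 858, 803 and 812 in siRNA, below every control (864 to 1069). Its change was -0.24 (SE 0.07, adjusted p = 0.0302), and -0.26 in set A alone. The call was lost without any 1 of PBS replicates 1, 2 and 4, PNA2 replicate 3 and the 4 siRNA libraries (adjusted p from 0.0520 to 0.162). Without rescaling the change was -0.01 (adjusted p = 0.971), where the median of all genes was 0.22. The other E2F factors lay among the controls, with E2F1 at 1498, 1509, 1654 and 1540 (change 0.16, SE 0.15, adjusted p = 0.489). E2F2 was at 725, 670, 704 and 655 (change 0.04, SE 0.18, adjusted p = 0.916).

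The E cyclins lay on opposite sides of the controls in siRNA without passing the adjusted test. CCNE1 was 615, 589, 644 and 642, below every control (708 to 864), with a change of -0.34 (SE 0.14, adjusted p = 0.119). CCNE2 was 915, 938, 905 and 856, above every control (559 to 816), with a change of 0.59 (SE 0.23, adjusted p = 0.0913). CDC25A was 1208, 1096, 1185 and 1172, below every control (1279 to 1698; change -0.40, SE 0.14, adjusted p = 0.0632). With the siRNA and PBS libraries alone the changes were -0.30 for CCNE1 (adjusted p = 0.00591), 0.55 for CCNE2 (adjusted p = 0.000116) and -0.44 for CDC25A (adjusted p = 0.000253). The adjusted p over all alternatives spanned 0.00367 to 0.706 for CCNE1, from 0.000116 to 0.277 for CCNE2 and from 7.89e-05 to 0.511 for CDC25A.

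Of the D cyclins and their kinases, CCND2 was 21.2, 20.7, 22.2 and 25.1 in siRNA, inside the wide control range (change -0.45, SE 0.34, adjusted p = 0.391). It passed with the sets aligned on their controls (-0.92, adjusted p = 0.0341) and with the 2 groups alone (-0.74, adjusted p = 0.0493), and over all alternatives the adjusted p reached 0.684. CCND3 was 1235, 1270, 1272 and 1149, near the top of the controls (change 0.19, SE 0.10, adjusted p = 0.219). It passed with the 2 groups alone (0.28, adjusted p = 0.00320) and without rescaling (0.43, adjusted p = 0.0417), and over all alternatives the adjusted p reached 0.416. CD8A passed in siRNA too (2.15, SE 0.71, adjusted p = 0.0486). Of the other T and NK cell markers, CD3D and CD2 averaged 0 in both PBS and siRNA, and CD3G 0.169 in PBS and 0 in siRNA. CD3E averaged 1.39 in PBS and 2.27 in siRNA, NCAM1 1.41 and 3.08, and NKG7 0 and 0.901. Whether other cells were present, or had a part in the low CCND2 values, was not tested. CDK4 was 3544, 3660, 3806 and 3386, with 1 library below every control. Its change was -0.23 (SE 0.09, adjusted p = 0.0837), and it passed in set A alone (-0.26, adjusted p = 0.0403, from 0.00692 to 0.998 over all alternatives). CDK6 was 2145, 2156, 1960 and 2017, among the controls (change 0.05, 95% CI -0.10 to 0.21, adjusted p = 0.656).

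Among the 26 partners 4 were higher and 4 lower in siRNA, 30.8% of the list against 17.2% of all genes. RB1, the retinoblastoma protein gene, rose by 0.71 (adjusted p = 0.00280), and its relative RBL2 by 0.35 (adjusted p = 0.0218). The repressor-class factor E2F5 rose by 0.37 (adjusted p = 0.0272) and FBXW7, which directs cyclin E to degradation, by 0.28 (adjusted p = 0.0318). CDC25B fell by 0.46 (adjusted p = 0.00868), CDKN2A, the p16 gene, by 0.37 (adjusted p = 0.00874), TFDP2, a dimer partner of E2F, by 0.31 (adjusted p = 0.0135) and E2F4 by 0.27 (adjusted p = 0.0260). None of the 20 E2F targets passed the limma test in siRNA. Of these, 2 passed an unadjusted p of 0.05, 10% of the list against 31.9% of all genes, and the list's median was 0.00091.

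Set directly against each other at 48 h, the libraries labelled PNA2 and those labelled siRNA differed in 6 of the 10 genes (2 higher in PNA2, 4 lower), where 23.5% of all genes differed (12% higher, 11.5% lower). Groups did not overlap in 5 of the 10, against 27.5% of all genes. CCND2 was higher in every PNA2 library than in any siRNA library (1.47, SE 0.37, adjusted p = 0.00909). CCND3 was lower in every one (-0.56, SE 0.11, adjusted p = 0.00210), as was CCNE2 (-0.97, SE 0.25, adjusted p = 0.0105) and E2F1 (-0.64, SE 0.16, adjusted p = 0.00829). No single library removed any of these 4 calls, although without PNA2 replicate 2 the change of CCNE2 was -0.47 and that of E2F1 -0.36. E2F3 was higher in every PNA2 library (0.23, SE 0.08, adjusted p = 0.0431), a call that only the omission of PNA2 replicate 1 or 2 left in place among 14 omissions (adjusted p from 0.0540 to 0.1095 in the other 12).

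E2F2 was lower in PNA2 than in siRNA (-0.59, SE 0.20, adjusted p = 0.0421) with overlapping groups. It kept the call in 3 of 14 omissions of 1 library, those of PBS replicate 4, the control of column 7 and PNA2 replicate 1, the last with -0.97. In the other 11 the adjusted p ran from 0.0518 to 0.179, and without PNA2 replicate 2 the change was -0.30. CCNE1 (-0.29, adjusted p = 0.202), CDC25A (-0.06, adjusted p = 0.827), CDK4 (0.17, adjusted p = 0.210) and CDK6 (0.02, adjusted p = 0.910) did not pass. For CDC25A the 95% CI ran from -0.38 to 0.26 and for CDK6 from -0.15 to 0.19. With the PNA2 and siRNA libraries alone, 3 of the 10 passed, where 22.8% of all genes did.

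Between the 2 reagents 5 of the 26 partners were higher and 8 lower in PNA2, 50% against 23.5% of all genes. RB1 had the largest decrease among them (-0.99, adjusted p = 0.000225). FBXW7 (-0.45, adjusted p = 0.00267) and E2F5 (-0.44, adjusted p = 0.0114) were lower in PNA2 as well. The CDK4 and CDK6 inhibitor genes CDKN2B, CDKN2C and CDKN2D were lower by 0.40 to 0.66 on the log2 scale, while CDKN2A was higher by 0.33 (adjusted p = 0.0156). CDK7, the kinase that activates CDKs, was higher in PNA2 (0.38, adjusted p = 0.0287), and MNAT1, which assembles its complex, lower (-0.33, adjusted p = 0.0385). Of the 20 E2F targets 3 were lower in PNA2 and none higher, 15% against 23.5% of all genes, with a median of -0.28. CDC6, which loads the replicative helicase, was lower in PNA2 (-0.45, adjusted p = 0.0103), as were the thymidine kinase gene TK1 (-0.87, adjusted p = 0.0139) and UHRF1 (-0.37, adjusted p = 0.0468).

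At 72 h the libraries labelled PNA2 were compared with 5 PBS controls of the same table. CCND3 rose 1.65-fold, while E2F3, CCNE2 and E2F2 fell, and CCNE1, E2F1 and CDC25A, which had fallen at 48 h, did not pass the test. Thus 4 of the 10 passed (1 higher, 3 lower), where 23.8% of 11985 genes did (12.1% higher, 11.7% lower). The median change was -0.14 over the 10 and -0.01 over all genes. Only CCND3 had groups without overlap, against 19.2% of all genes. Whether a change differed between the times was not tested, since the tables were normalized separately. In such bulk samples fewer cells with a transcript and less of it per cell cannot be told apart.

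**Figure D4:**
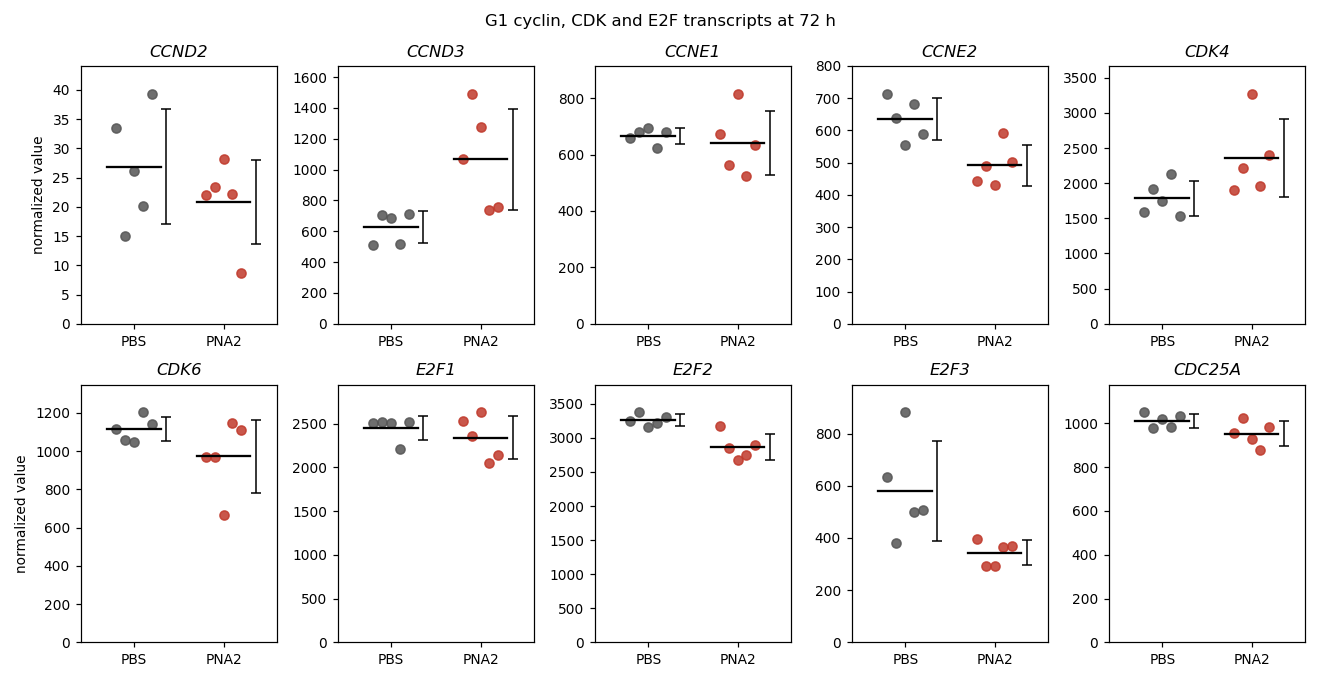
Normalized value of each gene in each 72 h library, PBS against PNA2, with the group mean as a line and the SD as a bar beside it (n = 5 each). All 5 PNA2 values of CCND3 (739 to 1494) lie above all 5 PBS values (511 to 715), while 4 of 5 PNA2 values of E2F3, CCNE2 and E2F2 lie below all controls.

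CCND3 had normalized values of 511, 707, 685, 518 and 715 in PBS replicates 1 to 5 and of 1067, 1494, 1280, 739 and 755 in PNA2 replicates 1 to 5. PNA2 replicates 4 and 5 lay just above the highest control and the other 3 far above it. The change was 0.73 (SE 0.20, limma adjusted p = 0.0214), and the call was lost without PBS replicate 1 or PBS replicate 4 (adjusted p = 0.0540 and 0.0541). CCND2 was 33.5, 15.1, 26.1, 20.1 and 39.4 in PBS and 22.0, 23.4, 28.1, 22.1 and 8.76 in PNA2, with broad overlap (change -0.36, 95% CI -1.14 to 0.41, adjusted p = 0.483). CCND3 was thus higher at 72 h in libraries bearing the label with which it was lower at 48 h. CCND2 rose at 48 h and did not pass at 72 h.

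CDK4 was 1596, 1924, 1750, 2133 and 1528 in PBS and 1905, 2222, 3275, 1960 and 2398 in PNA2. PNA2 replicates 2, 3 and 5 lay above every control. The change was 0.38 (SE 0.15, limma adjusted p = 0.0778), and DESeq2 on the recovered reads called it (0.40, adjusted p = 0.0426; 0.0426 to 0.158 over all alternatives). CDK6 was 1118, 1061, 1050, 1204 and 1141 in PBS and 971, 969, 666, 1146 and 1113 in PNA2. Of the PNA2 libraries 3 lay below every control and 2 among them (change -0.22, SE 0.13, adjusted p = 0.238).

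CCNE2 was 715, 639, 555, 683 and 589 in PBS and 444, 489, 431, 592 and 504 in PNA2, where replicate 4 alone reached the controls. The change was -0.37 (SE 0.10, adjusted p = 0.0242), and the call was lost without PBS replicate 1, PBS replicate 4 or PNA2 replicate 1 (adjusted p from 0.0587 to 0.0626). CCNE1 was 657, 678, 693, 622 and 678 in PBS and 671, 562, 816, 523 and 635 in PNA2, scattered on both sides of the narrow control range (change -0.07, 95% CI -0.31 to 0.17, adjusted p = 0.674). CDC25A was 1051, 978, 1018, 982 and 1034 in PBS and 954, 1023, 926, 877 and 984 in PNA2. In all, 3 PNA2 libraries lay below all controls by small margins (change -0.09, 95% CI -0.23 to 0.05, adjusted p = 0.335).

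E2F3 was 635, 381, 882, 499 and 509 in PBS and 396, 292, 291, 367 and 370 in PNA2. The controls were widely spread, and PBS replicate 2 lay below the highest PNA2 library. The change was -0.71 (SE 0.19, adjusted p = 0.0212), and the call was lost without PBS replicate 1 or PNA2 replicate 2 (adjusted p = 0.0524 and 0.0529). E2F2 was 3246, 3376, 3153, 3221 and 3307 in PBS and 3173, 2854, 2677, 2743 and 2898 in PNA2. All PNA2 libraries but replicate 1 lay below the controls. The change was small (-0.19, SE 0.06, adjusted p = 0.0413) and kept its call in 1 of 10 omissions of a library, that of PNA2 replicate 1 (0.0558 to 0.0854 in the other 9). E2F1 was 2514, 2515, 2508, 2207 and 2514 in PBS and 2531, 2355, 2632, 2051 and 2142 in PNA2, on both sides of the controls (change -0.07, 95% CI -0.25 to 0.10, adjusted p = 0.550). Without PBS replicate 1 none of the 10 passed at 72 h by limma, without PBS replicate 4 only 1 did, and without PNA2 replicate 2 there were 2.

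Of 25 partners tested at 72 h, 5 were higher and 1 lower, 24% against 23.8% of all genes. CDK2, the kinase of cyclin E, rose by 0.44 (adjusted p = 0.0191), and its small binding partner CKS1B by 0.42 (adjusted p = 0.00880). TFDP1, a dimer partner of E2F, rose by 0.49 (adjusted p = 0.0114), and the inhibitor genes CDKN2A and CDKN2C by 0.66 (adjusted p = 0.00724) and 0.47 (adjusted p = 0.0417). RB1 fell by 0.36 (adjusted p = 0.0368). Of the 20 E2F targets 6 were higher and 1 lower, 35% against 23.8%, with a median of 0.09. The higher ones were the helicase genes MCM2 (0.33, adjusted p = 0.00379), MCM6 (0.20) and GINS2 (0.34), the licensing factor CDT1 (0.38), the sliding clamp PCNA (0.22) and TK1 (0.45, adjusted p = 0.0172). The polymerase alpha gene POLA1 was lower (-0.28, adjusted p = 0.0346).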

How the data were processed

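RNA-seq values of 24 libraries were used. The submitters' processing notes name GRCh38, Trimmomatic, HISAT2 (2.2.1), HTSeq (0.11.0), SAMtools (1.7) and DESeq2. At 72 h the deposited values are signal, counts scaled by 1 factor for each library, and undoing the scaling returned whole reads in 100% of cases within 0.01. At 48 h the deposited values are of no standard unit. They hold values below 0, and ties within 2 sets of libraries, as an adjustment of each gene within each set would leave, but no label states such a step, and the library totals differ. The sets were read from ties among 6826 low-valued genes (25.3% to 40.6% equal values within a set, 0% between sets), since no label names them. All siRNA libraries are in 1 set.

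At 48 h, values below 0 (found in 5099 genes) were set to 0 and scaled by TMM (edgeR 4.0.16). Then log2(value + 1) was fitted by limma 3.58.1 (R 4.3.3, trend) with group and set over all 3 groups. At 72 h log2(deposited value + 1) was fitted with group alone. Fold changes on this scale understate those of low genes. Genes with 10 or more in at least 4 libraries (48 h) or 5 (72 h) were kept. Tests were two-sided, with Benjamini-Hochberg adjustment over all genes tested and a threshold of 0.05. The fits were tested on simulated data. edgeR and DESeq2 1.42.0 on recovered read counts, other scalings, filters, pseudocounts and omissions of each library were tried. The members and lists were chosen with earlier results of these data known. The genes named are the 10 members, MYC, and those of the partner and target lists that passed in at least 1 comparison. Cell type markers and genes on opposite strands are named as checks only.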

Additional observations from a re-analysis of the deposited data

Results flagged for a closer look

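Among 50 groups of member values (10 genes in 5 groups of libraries), 1 held a library far from the others. E2F1 in PBS replicate 4 at 72 h stood at 2207, while the other 4 controls lay between 2508.4 and 2514.6. Chance marks about 1 in 20 such groups. Without that library the E2F1 change at 72 h still did not pass the test.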

How the results depend on the processing

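The 40 changes of the 10 genes were recomputed 900 times in all. In 763 cases the call was as reported, 113 lost a call, 23 gained one and 1 reversed. The reversed one was E2F3 in siRNA against PBS, which was 0.0226 (adjusted p = 0.911) with no set term and no rescaling. In PNA2 against PBS at 48 h, 6 of 10 genes were called. The count was 1 without rescaling (15.4% of all genes), 1 with neither rescaling nor set term (15.6%) and 1 with only these 2 groups in the fit (7.34%). It was 0 in set A alone (13.5%), 5 in set B alone (12.6%), and 3 to 7 when 1 library was left out. In siRNA against PBS, where 1 was called, the count was 0 without the set term (8.38% of all genes), 2 without rescaling (15.5%) and 0 with neither (9.87%). It was 0 without the filter (6.65%), 4 with the sets aligned on their controls (26%) and 7 with only the 2 groups (33.2%). Set A alone gave 2 (17%), and omissions of 1 library gave 0 to 5. The count was 3 without PNA2 replicate 1 and 5 without PNA2 replicate 2, neither of which is in that comparison. In PNA2 against siRNA the count of 6 became 3 with only the 2 groups (22.8% of all genes), and 4 to 7 when 1 library was left out. At 72 h the count of 4 was 0 to 3 when 1 library was left out, 4 with edgeR (23.7% of all genes) and 5 with DESeq2 (27.7%). The causes were not tested.

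The correlations do not settle whether replicate numbers pair the libraries. The correlation across genes between same-numbered libraries ran from -0.07 to 0.30 for PBS and PNA2 at 48 h and from -0.04 to 0.11 at 72 h. It ran from -0.06 to 0.07 for PBS and siRNA and from -0.01 to 0.08 for PNA2 and siRNA. The same-numbered PNA2 library was the best match of PBS replicates 1 and 3 at 48 h and 2, 3 and 4 at 72 h. The same-numbered siRNA library was that of PBS replicate 1 and PNA2 replicates 1, 2 and 3. With the replicate number as a block the counts at 48 h were 0 for PNA2 against PBS (6.07% of all genes) and 0 for siRNA against PBS (6.84%). They were 3 for PNA2 against siRNA (13%) and 3 at 72 h (23.1%).

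Groups of 4 to 6 libraries, CCND2 near 30 per library, and the spread among PNA2 libraries at 48 h limit what these data can resolve.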

Other observations

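The balance between members within a library needs no scaling between libraries, although any adjustment of each gene at 48 h would enter it. E2F2 stood at 0.479 ± 0.048 (SD, n = 6) of E2F1 in the 48 h controls, 0.458 ± 0.070 (n = 4) in PNA2 and 0.445 ± 0.028 (n = 4) in siRNA. In the 72 h controls E2F2 exceeded E2F1, at 1.33 ± 0.077 (n = 5), and in PNA2 it was 1.23 ± 0.13 (n = 5). The ranges at the 2 times do not overlap. The tables were made differently, so time and processing cannot be told apart.

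CCNE2 stood at 0.883 ± 0.14 (n = 6) of CCNE1 in the 48 h controls and at 1.45 ± 0.11 (n = 4) in siRNA. The highest control ratio was 1.03 and the lowest siRNA ratio 1.33. This lack of overlap is no separate result. It follows from the siRNA values above, with CCNE1 below and CCNE2 above every control. In PNA2 at 48 h the ratio was 1.07 ± 0.31 (n = 4). CCND3 exceeded CCND2 by a factor of 40.4 ± 24.7 (n = 6) in the 48 h controls, 15.7 ± 11.1 (n = 4) in PNA2 and 55.7 ± 6.79 (n = 4) in siRNA. At 72 h that factor was 26.4 ± 12.4 in the controls and 55.5 ± 20.3 in PNA2 (n = 5 each). The CDK4 to CDK6 ratio at 72 h was 1.60 ± 0.21 in the controls (1.34 to 1.81) and 2.61 ± 1.31 in PNA2 (1.71 to 4.92). The highest ratio, 4.92, was that of PNA2 replicate 3. That library also had the lowest MYC of its group, 460 against a median of 1966. The controls went the other way, since PBS replicate 5 had their lowest MYC (826) and their lowest ratio (1.34). Whether MYC bears on the ratio was not tested.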
